A study of Homo sapiens with 414 samples.

Results

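The 48 bulk H1 libraries are described here, out of 414 libraries in the series, most of which are single cells. They are all the libraries whose titles mark them as bulk H1. H1 is an established human embryonic stem cell line. The cultures were kept undifferentiated at 37 °C on Matrigel, a basement membrane extract, in E8, a defined medium, and were split with EDTA at passage 16. No agent, dose or genotype set any of the 48 libraries apart from the others. Poly-A RNA was selected from total RNA at 100 ng per µl, fragmented and copied from random hexamers, an adapter was ligated to the cDNA, and 51-base single-end reads were taken with 48 libraries per lane. The labels do not say whether the libraries came from separate cultures, so the spread between them, and every p-value below, may measure technical variation only.

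Human embryonic stem cells keep the pluripotent state of the epiblast through a transcription factor circuit of POU5F1 (OCT4), SOX2 and NANOG, held under FGF and activin or Nodal signalling. They grow as tight epithelial colonies, divide fast with a short G1 phase, rely strongly on glycolysis and carry an RNA pool rich in transcripts for making ribosomes, splicing RNA and folding proteins. Leaving this state is usually read from lineage factors such as SOX17 for endoderm, T (brachyury) for mesoderm, PAX6 for neural ectoderm and CDX2 for trophoblast.

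Library totals ran between about 2099640 and 3964670 counts, with a median of 2965020. Between 13519 and 14214 genes had a count in a library. Of 19084 genes in the table, 11503 had a count in all 48 libraries and 2269 had none in any. A mean of 1 CPM (counts scaled to a library total of 1000000) or more was reached by 12341 genes and 1000 CPM or more by 115. The median Spearman correlation of a library with the others lay between 0.966 and 0.981 in 47 libraries. The library titled bulk_277 stood apart at 0.925, and the calls named below that are lost without it are marked. No pair of libraries agreed within counting error (chi-square per gene of at least 1.51 in 1128 pairs), so none was counted as a duplicate.

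The 3 genes given as markers of these cells were abundant in every library. POU5F1, the pluripotency factor, had 991 CPM in its lowest library, 1176 in the median and 1362 in the highest. LIN28A, an RNA-binding protein that blocks let-7 maturation, had 2017, 2233 and 2649 CPM in the same order. PODXL, the sialomucin that carries the TRA-1-60 and TRA-1-81 epitopes, had 1883, 2075 and 2537 CPM. Of 24 core pluripotency genes, 23 were at 1 CPM or more, and together they took 1.60% ± 0.018 of all counts (SD, n = 48). The highest of them by counts was L1TD1, an RNA-binding protein derived from a LINE-1 element, at 4344 ± 327 CPM, followed by the de novo DNA methyltransferase DNMT3B at 2766 ± 177 CPM. TDGF1, the Nodal co-receptor, had 1763 ± 111 CPM. SOX2 had 183 ± 18.4 CPM and NANOG 109 ± 13.5 CPM. UTF1, a chromatin factor of pluripotent cells, was the exception at 0.117 CPM, with a count in 13 libraries. Genes of the naive state, an earlier pluripotent state, were low: 6 of 15 reached 1 CPM, led by the LIF co-receptor IL6ST at 14.2 ± 3.07 CPM, and KLF17 stayed at 0.06 CPM.

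By raw counts the transcriptome was led by NCL, the nucleolar protein nucleolin, at 15713 ± 1783 CPM, with NPM1, the nucleolar histone chaperone, at 11614 ± 435 CPM. HNRNPA2B1, an RNA-binding protein of splicing and RNA transport, had 9778 ± 1400 CPM, the translation factor EEF1A1 9040 ± 527 CPM and the chaperone HSP90AB1 8678 ± 603 CPM. To set genes side by side, counts were divided by the median length of the gene's protein-coding transcripts and scaled to 1000000 per library. On that length-scaled level NCL was again highest at 28824 ± 3254, and HSP90AA1, PTMA, NPM1, HNRNPA1 and PABPC1 followed, with levels of 11289, 10746, 10438, 9195 and 8376. They encode a chaperone, the acidic nuclear protein prothymosin, a nucleolar protein, an hnRNP of splicing and the poly-A binding protein. The metabolic genes among the 30 highest were the glycolytic enzyme ENO1 at a length-scaled level of 3664, LDHB at 3320 and fatty acid synthase FASN at 3889. The order depended on the transcript length used. With the longest transcript of each gene instead, NPM1 was highest at 20343 and NCL ranked 4 at 11996. HSP90AA1 then ranked 9, PABPC1 16 and ENO1 33. On that scale 18 of the 30 remained. FASN, RANBP2 and PDAP1 dropped far below, because their median transcripts in the annotation are fragments of 100, 156 and 120 bases. MTRNR2L2, at a length-scaled level of 6312, resembles mitochondrial ribosomal RNA in sequence, and mitochondrially encoded genes were not analysed here, so its level is uncertain.

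Summed over gene lists, splicing and hnRNP genes took 4.75% ± 0.273 of counts (32 genes), ribosomal protein genes 4.47% ± 0.267 (79 genes), translation factors 3.56% ± 0.067 (35 genes), chaperones 3.39% ± 0.119 (26 genes), cytoskeletal genes 2.10% ± 0.081 (31 genes) and glycolytic enzymes 1.46% ± 0.036 (21 genes). Per length the ribosomal protein genes took 7.38% of the level. The 10 highest genes of a library held 8.63% ± 0.502 of its counts and the 1000 highest 61.2% ± 0.808. Replication-dependent histone genes, whose mature transcripts lack a poly-A tail, were nearly absent: 7 of 25 reached 1 CPM and the highest, HIST2H2BE, had 4.49 CPM.

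Lineage genes were mostly at or near 0, with a few exceptions at levels of 100 CPM or more. Of 122 distinct lineage genes, 34 reached 1 CPM and 16 reached 10 CPM, while 21 had no count in any library, which allows up to 0.0207 CPM over the 48 libraries. In the table as a whole 12341 of 19084 genes reached 1 CPM. The genes without a count included the endoderm factor SOX17, the proneural factor NEUROG1, the mesoderm and amnion factor HAND1, the myogenic factors MYOD1 and MYOG, beta-globin HBB, the germ cell factor NANOS3 and the fibroblast gene LUM. Of 12 blood and immune genes 0 reached 1 CPM, and of 14 definitive endoderm genes only AFP, an alpha-fetoprotein gene of fetal liver and yolk sac, did so, at 2.28 ± 1.09 CPM. T had 0.12 CPM, PAX6 0.30 CPM and CDX2 0.03 CPM. In bulk RNA, fewer cells of a type and less RNA per cell cannot be told apart.

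By list, 1 CPM or more was reached by 4 of 18 neural ectoderm genes, 2 of 17 mesoderm, 5 of 10 neural crest, 3 of 14 trophoblast and amnion, 4 of 10 germ cell, 3 of 7 endothelial, 4 of 10 muscle and 9 of 13 fibroblast genes, the last close to the share in the table as a whole. NES, the intermediate filament of neural progenitors, had 414 ± 80.6 CPM and TUBB3, a neuronal tubulin, 90.3 ± 7.33 CPM, while the neural factor SOX1 had 0.12 CPM. KDR, the VEGF receptor of mesoderm and endothelium, had 177 ± 10.1 CPM beside 0.87 CPM for PECAM1 and 0.15 CPM for CDH5, both endothelial adhesion genes. TRDN, a protein of the muscle sarcoplasmic reticulum, had 201 ± 18.3 CPM and cardiac troponin TNNT2 37.7 ± 6.75 CPM, while MYH7, a cardiac myosin, had 0.02 CPM. ETS1, a factor of neural crest and endothelium, had 200 ± 17.9 CPM beside 0.29 CPM for SOX10. Among fibroblast genes, the matrix protein SPARC had 313 ± 21.2 CPM, THY1, also a stem cell surface antigen, 169 ± 13.4 CPM and COL1A1, a type I collagen chain, 132 ± 8.78 CPM, whereas COL3A1 had 0.25 CPM and DCN 0.01 CPM.

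**Figure D1:**
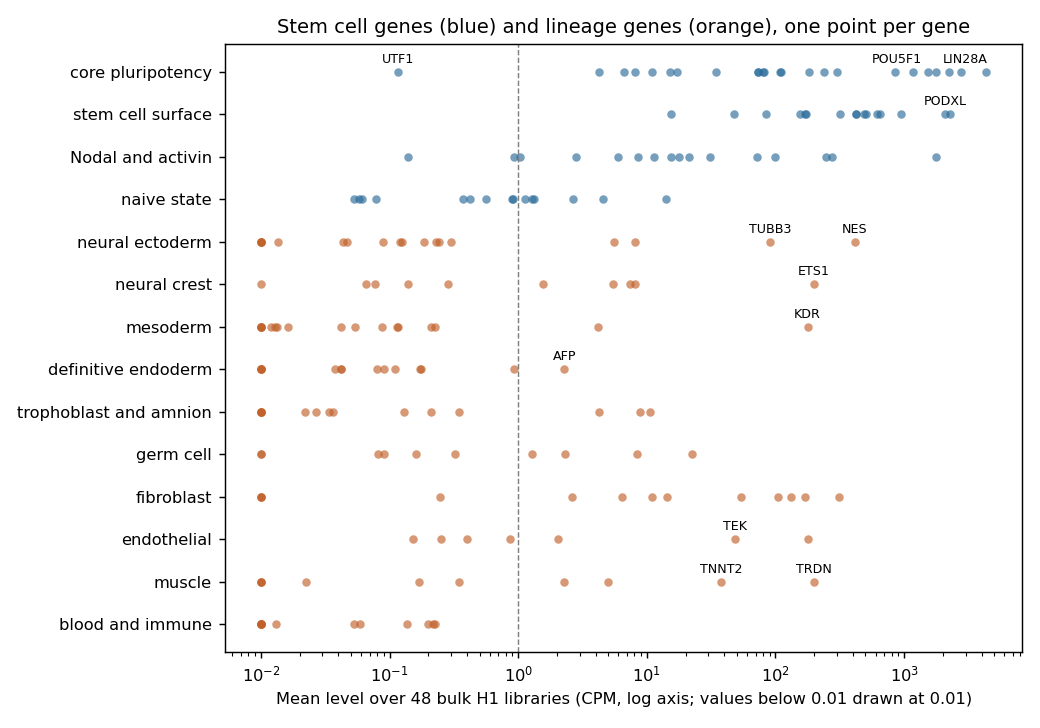
Mean level of each gene over the 48 bulk H1 libraries (CPM, log axis), by gene list, with stem cell lists in blue and lineage lists in orange. The dashed line marks 1 CPM, and 34 of the 122 lineage genes lie on or above it.

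How far genes differed between libraries was read from 10573 genes with a mean count of at least 10, after scaling for library composition (TMM). A gene was said to vary beyond counting error where a chi-square index of dispersion against a Poisson mean had a Benjamini-Hochberg adjusted p under 0.05, which held for 7081 genes (67%). The size was modest. The median coefficient of variation (CV) beyond counting error was 13.4% for genes with 10 to 30 counts and 6.49% for those with 300 to 1000 counts. Among 542 genes with a mean count of 1000 or more, 3 did not vary beyond counting error. RANBP2, a nuclear pore protein, was one of them, with 622 to 683 composition-scaled CPM and a CV of 2.33% where counting alone gives 2.25%. U2SURP, a splicing factor, and YWHAB, a 14-3-3 protein, were the others, with CVs of 3.38% and 3.46%. The next in line were MAT2A, which makes S-adenosylmethionine, IVNS1ABP, the disulfide isomerase PDIA3, SUMO2, the importin IPO5, the lipogenic enzyme ACLY and CDV3, with CVs between 2.84% and 4.21%.

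A gene was called above the trend where its spread was larger than that of genes of its level (edgeR goodness of fit to the trended dispersion, adjusted p under 0.05). This held for 553 genes (5.23%), and for 430 of the 4865 genes with a mean count of 100 or more (8.84%). Without library bulk_277 the count was 486. The marker genes were not among them: the excess of POU5F1 lay at the trend (log2 ratio 0.01), and LIN28A and PODXL lay below it (log2 ratios -2.16 and -2.66).

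**Figure D2:**
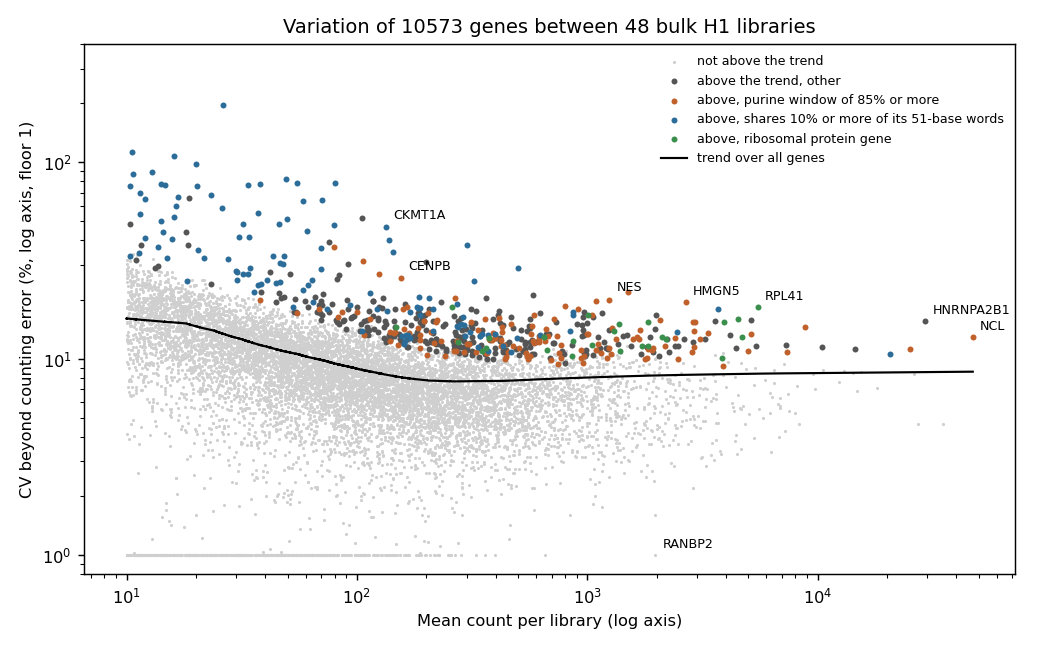
Coefficient of variation beyond counting error of 10573 genes over 48 bulk H1 libraries against mean count (both axes log), with the trend as a line. Genes above the trend are coloured by what they share: 120 share 10% or more of their 51-base words with another gene and 133 others have a purine window of 85% or more. Another 25 encode ribosomal proteins, and the remaining 49.7% have none of these features or no transcript in the reference.

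The 30 genes farthest above the trend (mean count of 100 or more) fell mostly into 2 sequence classes. Of the 30, 12 shared at least 10% of the 51-base words of their transcripts with another gene. A 60-base stretch of at least 85% purine was carried by 12, and 3 of these had both features. Neither was found in 7, and 2 had no transcript in the reference. Of the 553 called genes as a whole, 21.7% shared words to that degree and another 24.1% carried such a stretch. The rest had neither or no transcript. These are shares of called genes only, and genes that were not called can have either feature too. At a mean count of 100 or more, 8.84% of all 4865 genes were called. Most genes of that level with a stretch of 85% purine or more were not called. Among all 4865 genes with a mean count of 100 or more, 8.54% of those sharing no word were called above the trend, 30.5% of the 82 sharing 10% to 50% and 46.3% of the 54 sharing more. By purine stretch, the share called was 5.25% of 1676 genes at 75% to 80% purine, 16.0% of 450 genes at 85% to 90% and 23.4% of genes above that. It was also high, at 14.7%, for the genes whose richest stretch stayed below 70%. All 30 genes stayed above the trend under every alternative scaling, filter and left-out library in which they were tested.

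In some near-identical pairs the counts were divided differently from library to library. CKMT1A, a mitochondrial creatine kinase, had 0, 42.8 and 88.3 composition-scaled CPM in its lowest, median and highest library, and its copy CKMT1B had 0, 28.3 and 78.4 CPM. CKMT1A was at 0 in 3 libraries and CKMT1B in 12, and the pair moved in opposite directions (Spearman rho -0.94 over 48 libraries). Their sum ran between 55.9 and 88.3 CPM, with a CV of 10.3% against 49.3% for CKMT1A. SMN2 and SMN1, copies of the survival motor neuron gene that share 93.1% of their words, had CVs of 36.2% and 13.9%, and their sum 6.64%. RAD54B, a recombination protein, had a CV of 19.2% alone and 9.73% with FSBP (rho -0.76). NME1, a nucleoside diphosphate kinase, is not near-identical to another gene and shares only 15.7% of its words. Its CV was 20.9% alone and 7.86% with its readthrough gene NME1-NME2 (rho -0.27). Among genes with a mean count of 100 or more, 50 called genes shared 10% or more of their words. Of these 50, 45 had a partner at 1 CPM or more, and 29 of these 45 had a negative rho with the partner. Over all pairs of the 4865 genes at that mean count the median rho was 0.0002. A negative rho is therefore common between unrelated genes too, and its sign alone is not read as a split of counts. Adding a second gene to one chosen for its spread lowers the CV in most cases also where both are unrelated, so a lower CV of the sum alone is not read as a split of counts. The levels of single members of such pairs are uncertain. CDK11A and CDK11B, kinases of splicing and the cell cycle, had a rho of 0.11, and the CV of their sum was 23.3%, against 30.7% for CDK11B alone.

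**Figure D3:**
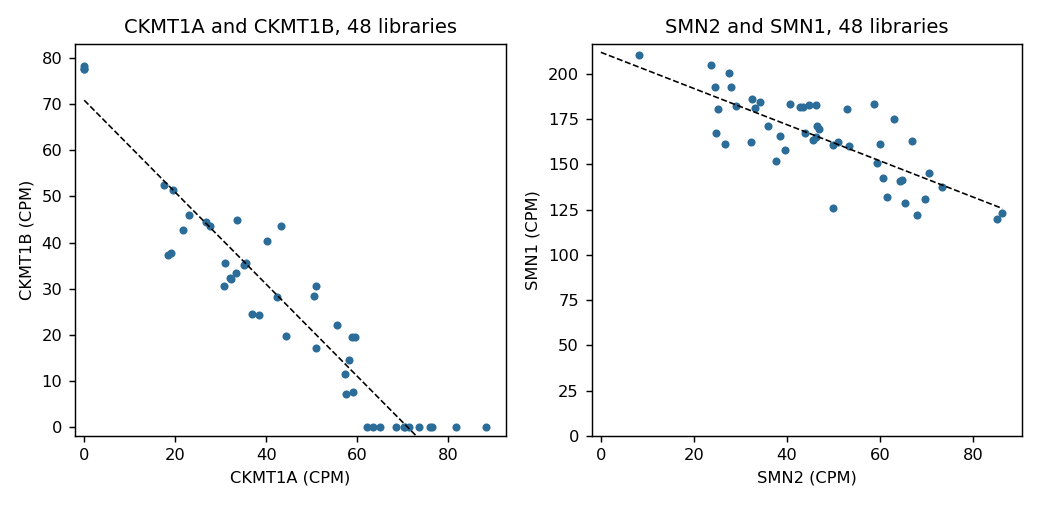
Composition-scaled CPM of CKMT1A against CKMT1B (left) and of SMN2 against SMN1 (right), one point per bulk H1 library. The dashed line marks pairs of values that add up to the mean sum, and the points of both panels scatter around it.

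The sequences below show what the purine-rich class looks like. They are the richest 60-base coding stretches of 5 of the most variable genes of that class that share under 10% of their words, read from GENCODE 29 transcripts (GRCh38, transcript strand). Capitals mark purines (A or G) and lower case marks pyrimidines. The stretches lie in HIRIP3, a histone chaperone partner on chromosome 16, CENPB, the centromere protein on chromosome 20, TCEAL2 on chromosome X, NES on chromosome 1 and HMGN5, a nucleosome-binding protein on chromosome X. The stretch of CENPB holds 60 purines in 60 bases, and that of NES begins at base 4372 of a transcript of 5558 bases.
HIRIP3: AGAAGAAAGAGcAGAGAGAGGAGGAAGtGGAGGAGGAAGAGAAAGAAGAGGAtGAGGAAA
CENPB: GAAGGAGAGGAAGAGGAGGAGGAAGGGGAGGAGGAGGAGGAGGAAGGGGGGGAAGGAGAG
TCEAL2: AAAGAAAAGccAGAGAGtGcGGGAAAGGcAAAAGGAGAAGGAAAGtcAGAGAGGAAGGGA
NES: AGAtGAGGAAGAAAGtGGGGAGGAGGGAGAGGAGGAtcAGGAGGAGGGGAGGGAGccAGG
HMGN5: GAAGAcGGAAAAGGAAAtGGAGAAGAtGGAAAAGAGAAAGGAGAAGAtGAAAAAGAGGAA

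Genes at the opposite end of the main axis of variation, described below, are set beside them. The richest coding stretches of ZIC2, a zinc finger factor of the forebrain on chromosome 13, and CD9, a tetraspanin of the stem cell surface on chromosome 12, hold 44 and 40 purines in 60 bases. Over their whole transcripts, the measure used elsewhere here, the richest stretches had 75% and 73.3% purine. The median over the 4865 genes with a mean count of 100 or more was 76.7%. Others at this end lay above that median, such as TM2D1 at 83.3% and OSTC at 80%.
ZIC2: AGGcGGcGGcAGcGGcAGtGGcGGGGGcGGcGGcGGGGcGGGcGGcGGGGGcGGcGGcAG
CD9: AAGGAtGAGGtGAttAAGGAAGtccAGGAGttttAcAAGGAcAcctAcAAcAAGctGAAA

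Several of the most variable purine-rich genes were high and low in the same libraries. CENPB had 19.7, 47.8 and 83.5 composition-scaled CPM in its lowest, median and highest library, and HIRIP3 13.1, 40.1 and 72.2 CPM. GPATCH4, a nucleolar G-patch protein, had 119, 492 and 767 CPM and TCEAL2 20.0, 90.5 and 145 CPM. In all 4 genes library bulk_277 was the lowest and library bulk_253 or bulk_285 the highest. Their lowest values among the other 47 libraries were 29.9 CPM for CENPB, 23.2 for HIRIP3, 338 for GPATCH4 and 54.8 for TCEAL2. HMGN5 had 60.4 CPM in library bulk_277 against a median of 897 CPM and a lowest of 641 CPM in the others. Without that library the log2 ratio to the trend was 1.91 for HMGN5, against 2.45 with it, and 2.56 for TCEAL2, against 2.83. The class as a whole was looser: over genes with a mean count of 100 or more, the median rho with the first component described next was 0.23 for the 450 genes at 85% to 90% purine and 0.33 for those above. NES, the neural progenitor gene named above, had 233, 400 and 645 CPM, lowest in library bulk_282 and highest in bulk_285, with a log2 ratio to the trend of 2.59 (edgeR goodness of fit, adjusted p = 3.6e-32). Its excess variation followed the purine-rich genes, with a rho of 0.94 to the axis described next. The other neural gene at 10 CPM or more, TUBB3, was not called above the trend (log2 ratio -0.58).

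In principal components of the 430 called genes, several of these purine-rich genes lay high on the main axis. The first component held 43.3% of their variance, the second 19.3% and the third 11.8%, and these were 44.9%, 17.5% and 3.38% without library bulk_277. The 15 genes with the highest loadings on the first component were NUDC, EIF3A, SSRP1, ZC3H13, RPL36A, TCEAL4, DDX46, ABCF1, HNRNPA1, DDX23, NASP, GPATCH4, APP, AATF and TCEAL2. Their richest stretch had a median of 85% purine, against 73.3% for the 15 genes with the lowest loadings and 76.7% over all 4865 genes. Among those 15 lowest were ZIC2, CD9, the splicing factor SRSF2, the transcriptional coregulator CITED2 and beta-actin ACTB. Some genes without a stretch of 85% purine followed the first component as closely as the purine-rich genes. The rho was 0.88 for HNRNPA2B1, 0.92 for TAF15 and 0.90 for RRP12, with richest stretches of 76.7%, 78.3% and 83.3% purine. RPL36A, among the 15 highest loadings, had a richest stretch of 73.3%. EIF3A, the largest subunit of a translation initiation factor, had 1300 composition-scaled CPM in library bulk_277, 2082 in the lowest of the others, 2865 in the median and 3803 in the highest, and CD9 ran the other way, with a median of 305 CPM and its highest value, 483 CPM, in library bulk_277.

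Each library was then given a purine slope, the regression of its genes' log2 deviations from their means on the purine share of their richest stretch. It lay between -0.123 (library bulk_277) and 0.0806 log2 units per 10 percentage points. The first component followed it (Pearson r 0.92, Spearman rho 0.93, permutation p = 1e-05 for both, the smallest that 100000 permutations can give, 6e-05 adjusted over 12 relations, n = 48). Without the 2 libraries farthest from the median r was 0.91, and with the components fitted without library bulk_277 it was 0.96. Purine stretches were taken up after the data had been seen. The p-values of this relation do not allow for that choice, so the relation is a description. Because the slope includes genes of the component, it was also computed from the 4435 genes not called above the trend, which gave r 0.85 and rho 0.91. The component was not found to follow the total count (r 0.04, permutation p = 0.81; rho -0.04, p = 0.77). Its Pearson r with the slope on transcript length, -0.58, became -0.06 without library bulk_277. Its r with the GC slope was 0.47 and with the ribosomal protein share 0.39, and these became 0.19 and 0.21 without that library. For the first component of all 4865 genes with a mean count of 100 or more, r was 0.77 with the purine slope, 0.64 with the GC slope and 0.66 with the ribosomal protein share.

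**Figure D4:**
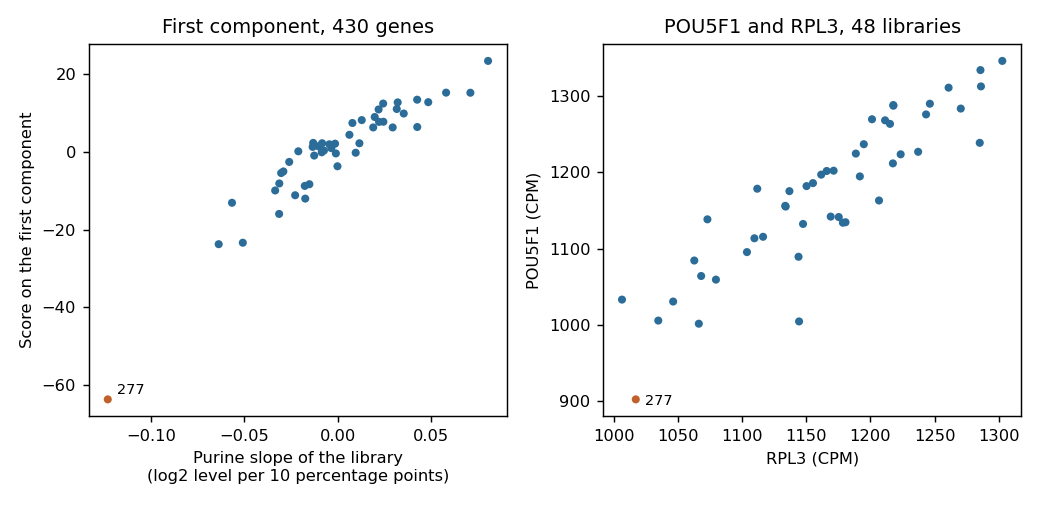
Left, score of each bulk H1 library on the first component of 430 genes against its purine slope. Right, composition-scaled CPM of POU5F1 against RPL3 in the same 48 libraries; library bulk_277 is marked in orange, lowest on the first component and in POU5F1.

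The second component followed the share of counts in ribosomal protein genes once library bulk_277 was left out (r 0.97, rho 0.97, 47 libraries, a description, since ribosomal protein genes are among the genes of the component). In the same 47 libraries its rho was 0.91 with the slope on GC content, -0.88 with the slope on transcript length and 0.71 with the total count. With all 48 libraries these were lower: rho was 0.53 with the ribosomal protein share, 0.52 with the GC slope, -0.59 with the length slope and 0.49 with the total (permutation p = 5.1e-04, adjusted 8.7e-04, for the total, the other 3 being descriptions because they share genes with the component), and without the 2 libraries farthest from the median of each property 0.53, 0.48, -0.54 and 0.42. Its rho with the purine slope was -0.72 over all 48 libraries and -0.18 with the component fitted without library bulk_277. The second component of all 48 libraries thus differs from that of the 47. Outside library bulk_277 its scores had a rho of -0.83 with the purine slope and 0.50 with the ribosomal protein share. The components fitted on all 48 libraries also followed the number in the library title, whose meaning the labels do not give. The values that follow are for those components. Over 48 libraries the rho with that number was 0.69 for the second component and -0.43 for the first. The purine slope had a rho of -0.57 with it, the total count 0.39 and the ribosomal protein share 0.48. The second component was negative in 18 of the 24 libraries with the lower numbers and positive in 21 of the 24 with the upper numbers. The permutation tests take the libraries as exchangeable and do not allow for this order, so their p-values may be too small. Within the lower and the upper numbers the rho of the first component with the purine slope was 0.89 and 0.91, that of the second with the ribosomal protein share 0.52 and 0.42, with the GC slope 0.56 and 0.28, with the length slope -0.65 and -0.41 and with the total 0.43 and 0.40. Genes with high loadings on the second component of all 48 libraries included PFN1, the actin-binding profilin, RPL23, TMSB10, a small thymosin, and UQCRH, a subunit of respiratory complex III.

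By gene list, calls above the trend were most frequent among ribosomal protein genes, at 28 of 79 members against 5.23% of all genes. The share was 8.84% for genes with a mean count of 100 or more, a level that 78 of the 79 reach. RPL41 had 439 composition-scaled CPM in library bulk_277 and 1314 to 2345 CPM in the other 47 (log2 ratio to the trend 2.24, adjusted p = 2.3e-37). RPL27 had 56.7, 83.8 and 118 CPM in its lowest, median and highest library (log2 ratio 2.51), and RPS28 and RPL23 had log2 ratios of 2.11 and 1.88. Splicing and hnRNP genes had 9 of 32, among them HNRNPA2B1 with 5938 CPM in library bulk_277 and 7223 to 14079 CPM in the others (log2 ratio 1.74), HNRNPH3, SRSF11 and U2AF1. Nuclear genes of oxidative phosphorylation had 10 of 42, among them UQCRQ and NDUFA1, small subunits of complexes III and I, with log2 ratios of 2.29 and 1.88. Cytoskeletal genes had 6 of 31 (9 without library bulk_277), led by TMSB10 (log2 ratio 2.24) and PFN1 (1.81). Nonclustered histone and HMG genes had 4 of 14, among them HMGA1 and HMGN1, both chromatin architectural proteins.

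Core pluripotency genes were called at about the background share. Of 23 core pluripotency genes tested, SOX2 was called (log2 ratio 0.71, adjusted p = 0.019). It was not called when libraries were scaled by their totals alone, nor without library bulk_277 (log2 ratio 0.23, adjusted p = 0.88), where DPPA4 was called in its place (0.85, adjusted p = 0.023). The surface list had a higher share, with 3 of 16 called: CLDN6, a tight junction protein, with 496, 628 and 882 CPM (log2 ratio 2.05), CD9 (1.40) and the epithelial cadherin CDH1 (0.95). Of 17 FGF and MAPK genes FGF2 was called (log2 ratio 1.28), and of 12 Nodal and activin genes LEFTY1, a secreted Nodal inhibitor, with 0.771, 6.03 and 10.3 CPM. Among cell cycle genes 1 of 26 in the G1/S list and 2 of 31 in the G2/M list passed: CHAF1A, a chromatin assembly factor, ASPM, a spindle protein, and HMGB2. Without library bulk_277 these 3 were not called (adjusted p = 0.094, 1 and 1). None of 20 glycolytic enzymes, 18 Wnt genes, 19 genes of DNA methylation and Polycomb, 19 of serine and one-carbon metabolism or 18 of extracellular matrix was called above the trend by edgeR after adjustment, while at an unadjusted p under 0.05 the counts were 1, 1, 0, 3 and 0, against 1095 of all 10573 genes. Without library bulk_277 the glycolytic enzyme ALDOA was called (adjusted p = 0.0027). Of 27 lineage genes tested, NES and TNNT2 were called (7.41%, near the share of all genes). TNNT2 had 8.82 CPM in library bulk_277, 25.7 in the lowest of the others and 38.6 in the median, and was not called without bulk_277 (log2 ratio 0.82, adjusted p = 0.43). Its transcript holds a stretch of 85% purine.

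**Figure D5:**
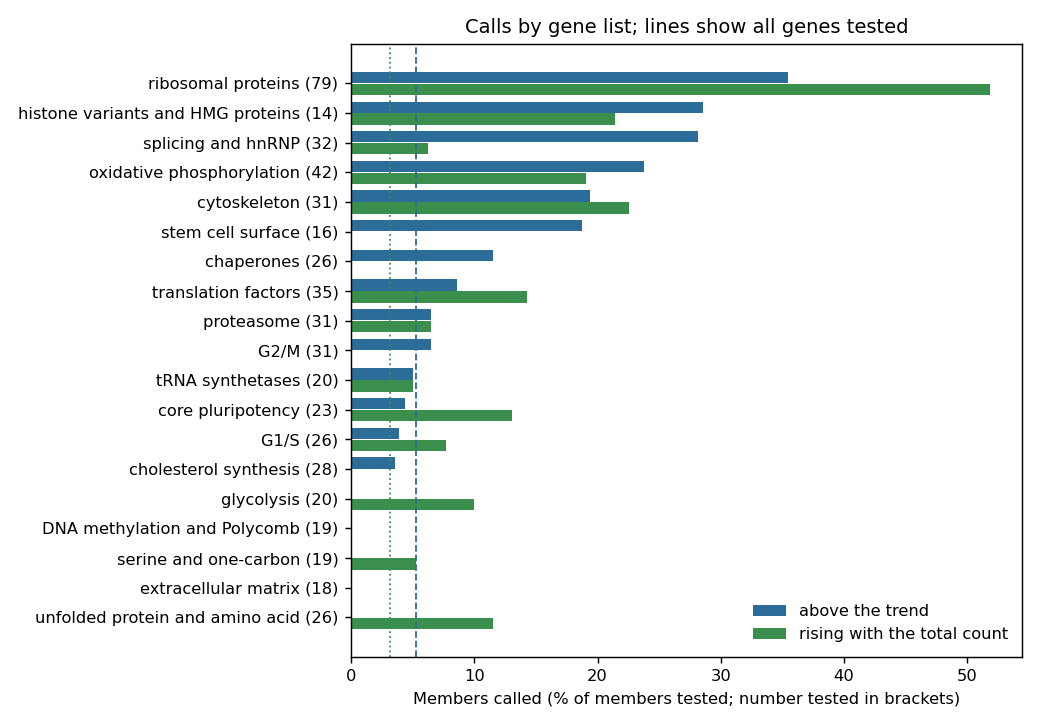
Share of tested members called above the trend (blue) and rising with the total count (green), for 19 gene lists with the number tested in brackets. Dashed and dotted lines show the shares over all 10573 genes, 5.23% and 3.15%, and ribosomal protein genes exceed both by the most. Among genes with a mean count of 100 or more 8.84% were called above the trend.

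Ribosomal protein genes also moved as a block. Over 48 libraries the median rho between pairs of 78 such genes was 0.43, against 0.0002 over all pairs of the 4865 genes, where 90% of pairs lay between -0.40 and 0.41. The corresponding medians were 0.21 for 24 chaperones, 0.17 for 15 stem cell surface genes, 0.11 for 32 splicing genes, 0.01 for 19 glycolytic enzymes and 0.01 for 17 core pluripotency genes. These are descriptions, as the genes share libraries and scaling.

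POU5F1 sat with the ribosomal protein genes. The 4 genes whose composition-scaled log2 level was most like that of POU5F1 over the 48 libraries were RPL3 (rho 0.91), RPS18 (0.89), RPS6 (0.87) and RPL35 (0.87). RPL3 had 1007, 1170 and 1303 CPM in its lowest, median and highest library, and POU5F1 902, 1180 and 1347 CPM. Without library bulk_277 the rho of POU5F1 and RPL3 was 0.90, and it was 0.91 with library totals as the scale. POU5F1 shares 20.1% of its words with POU5F1B, so part of its reads is assigned by estimate. LIN28A had no such partner: its nearest genes were STAT3 (0.55), a transcription factor of cytokine signalling, LPCAT1, FAM84B and EIF4B (0.53 each), and without library bulk_277 EIF4B, at 0.61, stood above STAT3, at 0.55. PODXL was closest to LARP4B (0.76), EEF1A1 (0.75), LARP1 (0.73) and ACTG1 (0.71), and without library bulk_277 the order changed, with 0.75 for LARP4B, 0.83 for EEF1A1, 0.73 for LARP1 and 0.82 for ACTG1. LARP1 binds the messenger RNAs of the translation machinery, and EEF1A1 and ACTG1 encode a translation factor and gamma-actin. Among the most variable genes, ARHGEF35, a guanine nucleotide exchange factor, was closest to HNRNPA2B1 (0.97), TAF15 (0.95), HNRNPH3 (0.93) and AATF (0.93). CKMT1A, RGPD5, SMN2 and PHOSPHO2-KLHL23 had no gene other than a copy above 0.58.

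The slope of each gene on the log2 library total was tested with edgeR's quasi-likelihood test, to ask which genes gained or lost share as libraries were read more deeply. The total itself followed the title number (above), and their parts in these slopes were not told apart. After scaling for composition 333 genes rose (3.15%) and 323 fell (3.05%), and scaled by library totals alone 459 rose and 222 fell. Among ribosomal protein genes 41 of 79 rose and 0 fell, also 0 at an unadjusted p under 0.05. RPL27 had the steepest slope of all genes with a mean count of 100 or more, 0.93 ± 0.14 (SE, adjusted p = 3.3e-05). The other 9 steepest were MRPS26, of the mitochondrial ribosome, COX5B, ATPIF1, ATP5I and NDUFA13, of the respiratory chain and ATP synthase, TMSB10, LZTS2, SERF2 and CRABP2, with slopes between 0.71 and 0.76. Of 42 oxidative phosphorylation genes 8 rose and 0 fell, with 3 falling at an unadjusted p under 0.05. POU5F1 rose with a slope of 0.39 ± 0.07 (adjusted p = 5.6e-04), as did ZSCAN10 and GAL among the pluripotency genes (GAL not without the 5 lowest totals, adjusted p = 0.26), while DPPA4 fell with -0.34 ± 0.09 (adjusted p = 0.011).

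Among the steepest falls were those of ZNF207, a spindle assembly protein (-0.71 ± 0.09, adjusted p = 1.5e-06), RBMX2, GTF3C6, UBE2E1, UHMK1, RPA2, MLEC, LRRC42 and CDH1 (-0.59 ± 0.09, adjusted p = 1.7e-05). Base composition moved with these calls. In the fifth of genes with the lowest GC content 7 rose and 113 fell, and in the fifth with the highest 135 rose and 13 fell. Its part in the result was not tested. Without the 5 libraries with the lowest totals 164 genes rose and 183 fell, and 32 ribosomal protein genes rose. Without library bulk_277 the counts were 347 and 380.

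Few of the genes above the trend in bulk were among those that varied most between H1 cells. For 8121 genes at 10 CPM or more in 92 H1 cells sequenced at 24 libraries per lane, the squared CV over cells was set against a running median over genes of like level. The 458 genes above the trend in bulk had a median log2 ratio of -0.74, and all 8121 genes had one of 0.02. Of the 458, 16 (3.49%) were among the 10% of genes with the highest ratios, as were, by construction, 813 of the 8121 (10.0%). Across genes the rho between both measures was -0.16. The cells came from other passages and another library chemistry and count as 1 sample, so no test was made.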

How the data were processed

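The authors deposited RSEM expected counts per gene, 1 table for the bulk libraries and 1 for the H1 cells used here. Per the submitters' processing notes the tools were CASAVA 1.8.2, Bowtie 0.12.8 and RSEM 1.2.3 on hg19, and the gene annotation is not given in the sources used here. Expected counts were rounded to whole numbers for the tests. Column names matched sample titles, with 0 columns left over. Depth was 2099640 to 3964670 counts per library. The limit given for genes with no count covers counting error only. Values after ± are SDs over libraries or, for slopes, SEs of the fit.

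Members and gene lists were chosen with earlier results of these data known. Genes were named by rule: the 30 highest per length and the 30 farthest above the trend, 15 loadings each way on a component, 10 slopes each way, 4 nearest genes, and up to 4 members of a list by level and by ratio to the trend. Some items these rules select are not reported here. The analysis of shared words, purine stretches, the second component and title numbers was added after the data had been seen. Transcript length, GC content, purine stretches and shared 51-base words came from GENCODE 29, which holds 18879 of 19084 genes (98.9%). Length is the median over protein-coding transcripts and the other features are those of the longest coding transcript. Genome positions are left out because the annotation and the mapping use different builds. Levels use library totals, and variation uses TMM factors (edgeR 4.0.16, R 4.3.3). DESeq2 1.42.0 was an alternative. Correlations used log2(CPM + 1), with Python 3.11.15, numpy 2.4.6, pandas 2.3.3 and scipy 1.17.1.

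The tests were run on simulated data for the 10573 genes. With 100 genes changed, variation beyond counting was found for 57 at a squared CV of 0.01 and 83 at 0.04, variation above the trend for 10 at 2 times and 81 at 4 times the trend, and a slope on the total for 3 at 0.25 and 47 at 0.5. Few false calls were made, 8, 5 and 1.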

Additional observations from a re-analysis of the deposited data

How the results depend on the processing

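Scaling by library totals or by median-of-ratios factors, a mean count of at least 1 or 50 and leaving out the 5 lowest totals kept the count of genes varying beyond counting error between 5587 and 7951, and that of genes above the trend between 496 and 750. Without library bulk_277 these counts were 6495 and 486, and without library bulk_285, the highest on the first component, 7002 and 539. Leaving out the highest library of each gene left 452 genes above the trend. Among those called, 465 lay 2-fold or more above the trend, and 551 above a local median. Genes rising and falling with the total were 164 and 183 without the 5 lowest totals, 343 and 371 with DESeq2, between 321 and 459 and between 222 and 339 under the other scalings and filters, and 347 and 364 without library bulk_285. Of the 20 genes named by slope 18 were called in every setting, and CRABP2 and GTF3C6 lost their call without the 5 lowest totals (adjusted p 0.054 and 0.13). With the longest transcript 18 of the 30 genes highest per length remained and ribosomal protein genes took 8.80% of the level. Counting 5 reads as detection left 33 lineage genes in 24 libraries or more, against 44 at 1 read. The median rho of ribosomal protein pairs lay between 0.42 and 0.46 in all alternatives, and the rho of the first component with the purine slope was 0.69 over all genes with a mean count of 100 or more. Replicate numbers are titles only and no second group of bulk libraries exists. No paired analysis was possible because the bulk libraries form 1 group. Depth limits the lineage genes: one with no count may lie anywhere up to 0.0207 CPM.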

Other observations

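The median rho between the gene deviations of 2 libraries was 0.14 for the 47 pairs with neighbouring numbers in their titles and 0.19 for the 40 pairs 8 numbers apart, against -0.02 for all 1128 pairs. These are the highest of 14 distances looked at, and the others lay between -0.07 and 0.12. The metallothionein MT1X had 305 ± 22.5 CPM and the iron storage gene FTH1 305 ± 34.3 CPM, and of 12 genes of metal handling tested 0 were called above the trend by edgeR after adjustment and 2 at an unadjusted p under 0.05, while without library bulk_277 FTH1 and FTL, the ferritin chains, were called. Of 17 p53 target genes and 11 immediate early genes tested, 0 were called after adjustment, and 1 and 0 at an unadjusted p under 0.05. MYC had 50.3 ± 5.23 CPM.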
